A study of Homo sapiens with 6 samples.

Results

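The 10 genes of polyamine synthesis, its control and polyamine breakdown were followed in LNCaP cells after small interfering RNA (siRNA) to PCARNEQ, and were chosen by name: ODC1, AMD1, SRM and SMS, OAZ1, OAZ2 and AZIN1, and SAT1, SAT2 and SMOX. They are 10 of the 19775 genes measured. LNCaP is an established, androgen-responsive human prostate cancer line, and PCARNEQ is a non-coding RNA. Total RNA of cells given siRNA to PCARNEQ (siPCARNEQ) or control siRNA to EGFP (siEGFP), a fluorescent protein that human cells lack, was hybridised to 3 single-colour Affymetrix arrays per group. All 6 arrays came from 1 cell line, and the labels give no siRNA sequence, dose or time. Since nothing in the labels says that the arrays of a group come from separate cultures, each p-value reflects array-to-array spread, which may be technical. Levels below are log2 of the deposited intensity of a probe set, a group of probes for 1 transcript. Differences are siPCARNEQ minus siEGFP on that log2 scale. A gene "rose" or "fell" only where limma gave a Benjamini-Hochberg adjusted p below 0.05.

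Polyamines (putrescine, spermidine and spermine) are small positively charged molecules that bind nucleic acids and are needed for growth. Ornithine decarboxylase (ODC1) makes putrescine. AMD1 supplies the aminopropyl donor with which SRM makes spermidine and SMS makes spermine. Antizymes (OAZ1, OAZ2) bind ornithine decarboxylase, block it and send it to the proteasome, and the antizyme inhibitor AZIN1 binds antizyme in its place. SAT1 acetylates spermidine and spermine for export or oxidation, and SMOX oxidises spermine back to spermidine. The prostate epithelium is known for making and secreting very large amounts of spermine.

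SAT1, SAT2 and SMS rose and ODC1 fell in siPCARNEQ cells, while the antizymes and AZIN1 did not pass the test. SAT1 moved furthest, to 2.68 times its siEGFP level (95% interval 2.33 to 3.08). SAT2 and SMS reached 1.49 and 1.45 times the siEGFP level, and ODC1 lay at 0.79 times. With 1 probe set per gene, 3 of the 10 genes rose, 1 fell and 6 did not pass. Over all 19775 genes 15.2% rose and 12.3% fell, 27.5% in all, so 4 of 10 does not by itself set these genes apart. By role, 2 of the 3 breakdown genes rose (median difference 0.57). That median is the value of SAT2, which is known to act mainly on thialysine. SMOX did not pass, and neither did PAOX, an oxidase of acetylated polyamines outside the 10 genes. Of the 4 synthesis genes 1 rose and 1 fell (median -0.08), and 0 of the 3 antizyme genes passed (median 0.00). Without adjustment the limma p was below 0.05 for AZIN1 (0.027), SRM (0.022), AMD1 (0.032) and SMOX (0.037), which did not pass. The share of all genes below that level was not computed. The median over all genes was -0.01.

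The array annotation paired 20 probe sets with these genes, 19 of them with 1 gene only. Of the 19, 5 rose, 1 fell and 13 did not pass, beside 9.92% of all 54613 probe sets that rose and 8.61% that fell, 18.5% in all. The groups did not overlap in 12 of the 19, beside 37.7% of all probe sets. Counted by gene, the groups did not overlap in 8 of the 10, beside 44% of all genes. The brightest probe set stands for each gene below. The adjusted p of a gene is over genes, and that of a further probe set is over probe sets. Where fewer cells with a transcript or less of it per cell would lower a level, bulk RNA cannot tell them apart.

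Sequences before the start sites are shown for 4 genes: SAT1 and SMS, which rose, ODC1, which fell, and SRM, the synthesis gene with the largest downward difference. The windows of SAT2, which also rose, were searched but are not shown. Each RefSeq promoter window of build GRCh38.p14 has 300 bases and runs on past the start site. Matches were counted over all 300, and the 250 bases up to the start site are printed. Capitals mark matches to CACGTG, the E-box core bound by MYC and related factors, and to CCAAT on either strand (written ATTGG on the other strand). These motifs were picked after the results and sequences were seen, and they do not overlap each other.
SAT1, chrX:23782923-23783172, plus strand: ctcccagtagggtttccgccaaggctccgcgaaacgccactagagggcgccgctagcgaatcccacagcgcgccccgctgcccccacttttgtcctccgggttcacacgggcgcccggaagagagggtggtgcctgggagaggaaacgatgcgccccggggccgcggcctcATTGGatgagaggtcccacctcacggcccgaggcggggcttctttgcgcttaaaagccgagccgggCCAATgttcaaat
SMS, chrX:21940459-21940708, plus strand: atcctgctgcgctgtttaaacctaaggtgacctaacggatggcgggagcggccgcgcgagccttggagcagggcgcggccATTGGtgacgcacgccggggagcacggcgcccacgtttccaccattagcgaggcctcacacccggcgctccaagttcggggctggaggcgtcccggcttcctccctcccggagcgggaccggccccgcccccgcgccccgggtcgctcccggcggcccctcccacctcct
SRM, chr1:11060019-11060268, minus strand: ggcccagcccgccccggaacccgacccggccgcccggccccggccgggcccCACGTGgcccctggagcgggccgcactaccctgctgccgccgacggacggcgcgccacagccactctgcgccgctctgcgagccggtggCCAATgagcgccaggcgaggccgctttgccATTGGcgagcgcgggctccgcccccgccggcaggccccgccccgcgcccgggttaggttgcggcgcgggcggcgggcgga
ODC1, outer start, chr2:10448328-10448577, minus strand: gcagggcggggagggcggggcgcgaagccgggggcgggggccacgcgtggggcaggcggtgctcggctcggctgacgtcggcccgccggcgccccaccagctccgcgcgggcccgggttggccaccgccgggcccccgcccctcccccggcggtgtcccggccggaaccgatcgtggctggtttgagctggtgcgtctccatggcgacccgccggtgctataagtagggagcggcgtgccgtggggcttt
The SRM window holds 1 CACGTG, 199 bases before the start, and the windows of SAT1 and SMS hold none. The outer ODC1 window holds none either, but the window of a second RefSeq start of ODC1, further into the gene, holds 2. The first lies 29 bases before that second start and the other begins at its base 6, and each is shown within 30 bases.
ODC1, chr2:10448024-10448053, minus strand: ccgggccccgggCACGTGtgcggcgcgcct
ODC1, chr2:10447990-10448019, minus strand: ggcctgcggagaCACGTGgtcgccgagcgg
Windows of 8 of the 10 genes were examined, 12 windows in all, and among these CACGTG was in windows of ODC1 and SRM only. ODC1 fell and SRM did not pass. No window of AZIN1 or SMOX was examined, so whether theirs hold either motif was not tested. Of 35116 RefSeq windows of 300 bases, 7.26% hold CACGTG and 34.6% hold CCAAT on either strand. Within the 250 bases up to the start, these shares are 6.34% and 32%. CCAAT was in the windows of SAT1 (2 matches), SRM (2), OAZ1 (2) and SMS (1), in both windows of SAT2 (1 each) and in 1 of the 3 windows of AMD1 (1). It was in neither window of ODC1 and not in that of OAZ2, so it was found in genes that rose and in genes that did not pass. These matches describe letters and not binding, which the arrays do not measure.

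ODC1, the first enzyme of the pathway, fell. Its single probe set (200790_at) read 13.71, 13.87 and 13.91 in siPCARNEQ arrays 1 to 3 and 14.14, 14.16 and 14.20 in siEGFP arrays 1 to 3. Every siPCARNEQ array lay below every siEGFP array. The log2 difference was -0.34 (SE 0.08, limma adjusted p = 0.0144), and it did not pass without siEGFP array 2 (adjusted p = 0.0567) or siEGFP array 3 (adjusted p = 0.0633). Taken apart, the arrays numbered 1 gave -0.43 and the means of arrays 2 and 3 gave -0.29.

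SRM, spermidine synthase, lay lower in siPCARNEQ without passing. Its level (201516_at) was 12.09, 11.60 and 11.64 in siPCARNEQ and 12.24, 12.12 and 12.15 in siEGFP. The groups did not overlap, but siPCARNEQ array 1 stood close to the control arrays. The log2 difference of -0.39 had a 95% interval of -0.71 to -0.07 (limma adjusted p = 0.0718). SRM passed when the array number entered the limma fit as a replicate block (adjusted p = 0.0231) and without siPCARNEQ array 1, where the difference was -0.55 (adjusted p = 0.00156).

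SMS, spermine synthase, changed in the opposite direction. Its probe set (202043_s_at) read 13.08, 12.92 and 13.01 in siPCARNEQ and 12.59, 12.41 and 12.39 in siEGFP, with no overlap. The rise was 0.54 (SE 0.08, limma adjusted p = 0.00321), with 0.49 between the arrays numbered 1 and 0.56 between arrays 2 and 3. The suffix of this probe set marks that its probes can match several transcripts, and the gene has no other single-gene probe set.

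AMD1, which decarboxylates adenosylmethionine, did not pass in either probe set. The brighter one (201197_at) lay between 14.13 and 14.22 in siPCARNEQ and between 13.92 and 14.04 in siEGFP, a gap too narrow to pass. Its log2 difference was 0.18 (95% interval 0.02 to 0.34, limma adjusted p = 0.0959). The other (201196_s_at) had a difference of 0.15 with overlapping groups.

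**Figure D1:**
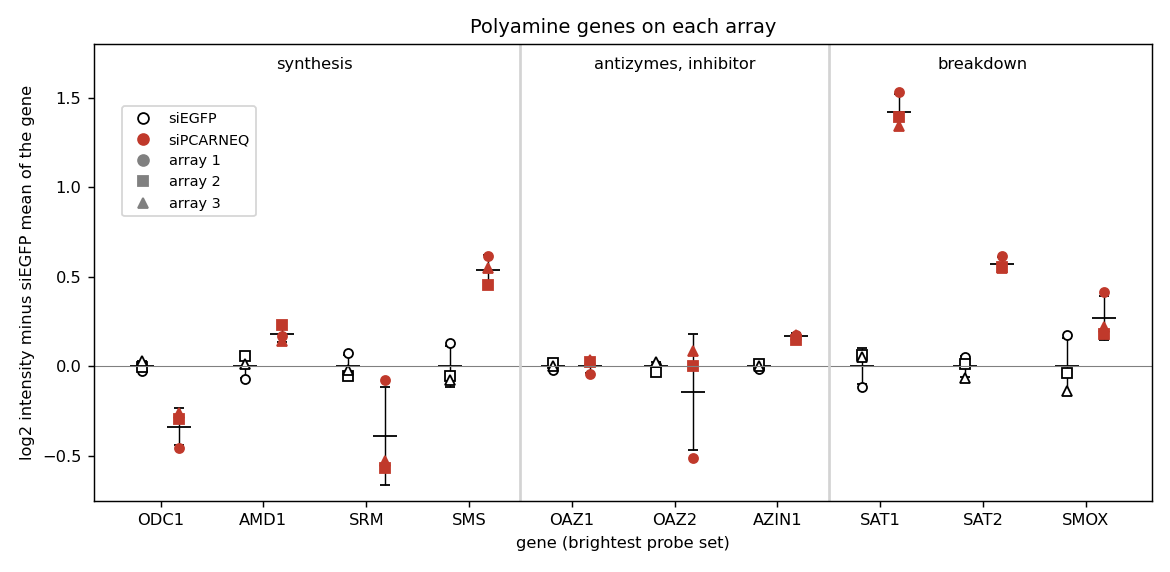
Log2 intensity of the brightest probe set of each gene on each array, minus the gene's siEGFP mean; open black symbols are siEGFP, filled red symbols siPCARNEQ, symbol shapes the array number, and bars the group mean ± SD (n = 3). SAT1, SAT2 and SMS lie above their controls and ODC1 below, and siPCARNEQ array 1 departs from arrays 2 and 3 in SRM and OAZ2.

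OAZ1, the widely expressed antizyme, had nearly the same level on all 6 arrays. Its brightest probe set (200077_s_at) ranged from 14.82 to 14.90 in siPCARNEQ and from 14.84 to 14.89 in siEGFP. The log2 difference was 0.00 with a 95% interval of -0.14 to 0.15 (limma adjusted p = 0.970), a fold of 0.905 to 1.11. The antizyme protein is made by a frameshift during translation that polyamines promote, a step that RNA levels do not report.

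OAZ2, a second antizyme, gave probe sets that differed in direction. The brighter (201364_s_at) was 11.04, 11.55 and 11.63 in siPCARNEQ and 11.56, 11.52 and 11.57 in siEGFP, so only siPCARNEQ array 1 was low. The other (201365_at) was 11.35, 11.09 and 11.15 against 11.08, 10.88 and 10.77, higher in siPCARNEQ with the nearest arrays almost equal. Their log2 differences were -0.14 (limma adjusted p = 0.554) and 0.29 (adjusted p = 0.130 over probe sets), and neither passed. Without siPCARNEQ array 1 the brighter one stood at 0.04.

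AZIN1, an enzymatically inactive relative of ornithine decarboxylase, was split in the same way. The brightest of its 3 probe sets (212461_at) lay at 12.49 to 12.52 in siPCARNEQ and at 12.33 to 12.36 in siEGFP, a narrow gap with little scatter. It did not pass (log2 difference 0.17, 95% interval 0.03 to 0.31, limma adjusted p = 0.0832). The other probe sets, 201772_at and 213747_at, differed by -0.15 and -0.32 with overlapping groups, and siPCARNEQ array 1 was the lowest array in both. Averaged over all 3 probe sets, AZIN1 had a difference of -0.10.

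On siPCARNEQ array 1 the ACTB control read 1.84 higher (log2) at its 3' end than at its 5' end, a gap that widens as RNA degrades, against 0.63 to 0.78 on the other 5 arrays. Its part in the low readings of OAZ2 and AZIN1 on that array, and in the ODC1 and SRM values, was not tested.

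SAT1, the acetyltransferase that starts polyamine export and breakdown, rose in all 3 of its single-gene probe sets. The brightest (210592_s_at) read 13.69, 13.56 and 13.50 in siPCARNEQ and 12.05, 12.23 and 12.21 in siEGFP. The lowest siPCARNEQ array stood well clear of the highest control array. The log2 difference was 1.42 (SE 0.09, limma adjusted p = 7.62e-05), which ranked 149 among 19775 genes ordered from the largest rise. The arrays numbered 1 gave 1.65 and arrays 2 and 3 gave 1.31.

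The further SAT1 probe sets gave like differences. Probe set 203455_s_at read 13.40, 13.22 and 13.17 against 11.85, 12.24 and 12.18, a difference of 1.17 (SE 0.12, limma adjusted p = 0.00112 over probe sets). Probe set 213988_s_at read 12.24, 12.69 and 12.63 against 10.89, 11.31 and 11.27, a difference of 1.36 (SE 0.16, limma adjusted p = 0.00173 over probe sets). In this last one array 1 was the lowest of both groups, so the difference kept its size. All 3 carry the suffix for probes that can match several transcripts. A further probe set, 210593_at, annotated to ZSWIM8 as well as SAT1, lay at 6.37 and 6.29 in the groups, under the array median of 7.03, and showed a difference of 0.08 (limma adjusted p = 0.663).

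SAT2, related to SAT1 in sequence and known to act mainly on thialysine, rose too, by less. Its single probe set (225272_at) read 12.33, 12.27 and 12.27 in siPCARNEQ and 11.77, 11.73 and 11.65 in siEGFP. The arrays within each group lay close together and the groups did not overlap. The difference was 0.57 (SE 0.07, limma adjusted p = 0.000905), and it was 0.57 in the arrays numbered 1 and 0.58 in arrays 2 and 3.

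SMOX, spermine oxidase, which releases hydrogen peroxide and an aldehyde, did not pass. The brightest of its 3 probe sets (210357_s_at) read 8.72, 8.49 and 8.53 in siPCARNEQ and 8.49, 8.27 and 8.17 in siEGFP, where the nearest arrays of the groups almost touched. The log2 difference was 0.27 (95% interval 0.02 to 0.52, limma adjusted p = 0.106). It passed with the replicate block (limma adjusted p = 0.0235) and without siEGFP array 1 (0.36, adjusted p = 0.0449). Its other probe sets lay under the array median, with mean levels of 6.53 and 6.44, so dim that background may make up much of them, and had differences of 0.18 and -0.05.

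**Figure D2:**
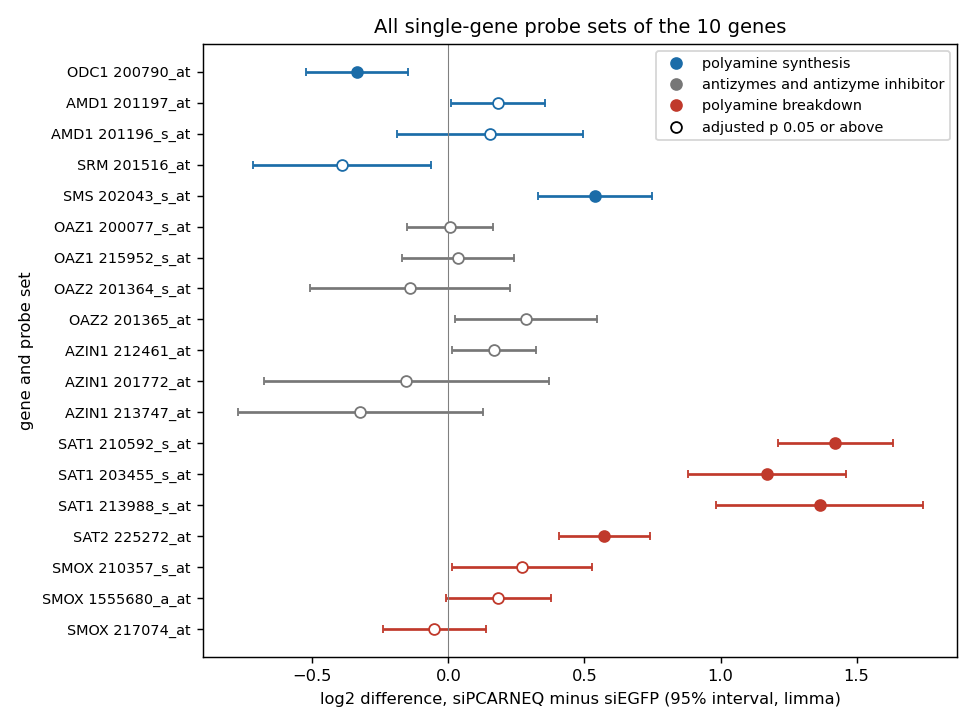
Log2 difference (siPCARNEQ minus siEGFP) with its 95% interval for each of the 19 single-gene probe sets, coloured by role; filled points have a limma adjusted p below 0.05 over all probe sets. The 3 SAT1 probe sets lie between 1.17 and 1.42, while the probe sets of OAZ2, AZIN1 and SMOX fall on both sides of 0.

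Unequal change between genes was compared as the log2 ratio of both genes within each array, in 8 pairs. With 3 against 3 arrays, the 2-sided exact permutation test cannot give a p below 0.1, so no pair could pass 0.05. ODC1 against SAT1 differed most, with a difference of changes of -1.76 (SE 0.13), and the ratio lay lower in all 3 siPCARNEQ arrays than in any control array (exact p = 0.1, 0.114 adjusted over the 8 pairs). The acetyltransferases differed by 0.85 (SE 0.09) in favour of SAT1, and SAT1 exceeded SMOX by 1.15 (SE 0.15). SRM against SMS, which act in sequence, gave -0.93 (SE 0.12). ODC1 against AMD1, AZIN1 and OAZ1 gave -0.52, -0.50 and -0.34. In each of these 7 pairs the groups did not overlap and the exact p was 0.1. Among all genes taken singly the groups did not overlap in 44%, and the share for ratios of other gene pairs was not computed. OAZ1 against OAZ2 overlapped, with 0.15 (SE 0.17, exact p = 0.7).

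Of the 10 genes, 7 lay above 0 and 3 below in their brightest probe set. Between the arrays numbered 1 and between arrays 2 and 3, the difference had the same sign in each gene except OAZ1 and OAZ2. SAT2, AZIN1, SMOX and SMS had nearly the same difference in both array sets. SRM and OAZ2 departed, with -0.15 against -0.51 and -0.52 against 0.05, and SAT1 had 1.65 against 1.31. With arrays 2 and 3 alone, 7 of the 10 genes passed, 5 higher and 2 lower, where 41.6% of all genes passed. With arrays 2 and 3 of a group averaged as 1 replicate only SAT1 and SAT2 of the 10 passed, where 11.3% of all genes did.

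**Figure D3:**
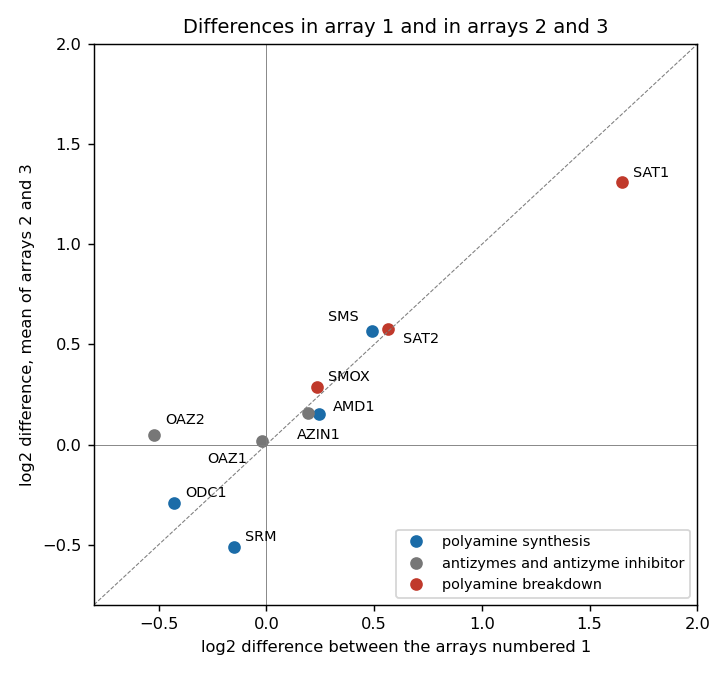
Log2 difference of each gene between the arrays numbered 1 (horizontal) and between the means of arrays 2 and 3 (vertical), 1 point per gene coloured by role; the dashed line marks equal values. SAT1 lies far from the other genes on both axes. OAZ2 lies at -0.52 on the horizontal and 0.05 on the vertical axis, and OAZ1, also of opposite signs, at -0.02 and 0.02.

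The genes whose 6-array profiles lay nearest were named for the gene with the largest limma t of each role, by the distance between mean-centred log2 levels. For SAT1 these were DUSP16 (distance 0.10, log2 difference 1.45), SMIM14 (0.11, 1.49) and ANXA1 (0.14, 1.44). For SMS they were LMBR1L, GET4 and MORC4, with distances of 0.06 to 0.08. For AZIN1 they were HMGN3, CHTOP and ASB9, with distances of 0.03 to 0.04. ANXA1 and ASB9 had mean levels of 6.52 and 5.13, under the array median of 7.03, so their profiles are less certain. With 6 arrays in 2 groups, nearness is a description of these arrays only.

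Genes that feed, use, move or resemble the polyamine pathway were counted in 6 lists chosen by function. Of 50 measured genes, 12 rose, 8 fell and 30 did not pass, beside the 27.5% of all genes that passed, and the median difference was 0.02, beside -0.01 over all genes. Where several probe sets of a gene disagreed, this is said beside it.

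Ornithine, the substrate of ODC1, is made from arginine by arginases and is also used by ornithine aminotransferase. Of 12 such genes, 5 rose, 1 fell and 6 did not pass (median 0.14). OAT, ornithine aminotransferase, rose from 9.63, 9.62 and 9.68 in siEGFP to 10.92, 11.13 and 11.07 in siPCARNEQ, by 1.40 (SE 0.08, limma adjusted p = 6.37e-05). SLC25A15, the mitochondrial ornithine carrier, fell from 11.21, 11.23 and 11.28 to 9.12, 9.73 and 9.72, by 1.72 (SE 0.16, limma adjusted p = 0.000381), and its second probe set fell by 1.53. These genes stood far outside the spread of their groups. ASS1, argininosuccinate synthase, rose by 0.90. ARG2, the mitochondrial arginase, named after its value was seen, rose from 12.72, 12.03 and 12.09 in siEGFP to 13.22, 12.85 and 12.86 in siPCARNEQ, by 0.70 (SE 0.20, limma adjusted p = 0.0348). Its groups did not overlap, but array 1 was the highest of both, and leaving out any array other than siEGFP array 1 raised the adjusted p to between 0.0572 and 0.122. Over probe sets its adjusted p was 0.0526, and the dimmer ARG2 probe set (203945_at) had 0.39 with overlapping groups and did not pass. ARG1, the liver arginase, rose by 1.24 in 1 of 4 probe sets, with all 4 at mean levels under the array median of 7.03, so its size is uncertain.

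The methionine cycle supplies the adenosylmethionine that AMD1 uses, and the salvage pathway returns methylthioadenosine, the by-product of SRM and SMS. Of 15 genes, 3 rose, 5 fell and 7 did not pass (median -0.13). MTR, methionine synthase, fell from 11.14, 11.30 and 11.31 in siEGFP to 8.95, 9.30 and 9.15 in siPCARNEQ, by 2.12 (SE 0.11, limma adjusted p = 4.58e-05), but its second probe set (226969_at) had a difference of 0.11 and did not pass. GNMT, which consumes adenosylmethionine to methylate glycine, rose by 1.22 (SE 0.09). AHCYL2, related to the hydrolase of adenosylhomocysteine, rose by 0.75 in its brighter probe set, with 0.07 in the other. APIP, an enzyme of methionine salvage, rose by 0.37. Its second, dim probe set (232630_at, mean level 4.46) had 0.47 and did not pass (limma adjusted p = 0.149 over probe sets).

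Spermidine is also the donor for hypusine, a modified lysine of the translation factor EIF5A. Of the 4 genes of this step, DHPS rose, EIF5A fell and 2 did not pass. DHPS, deoxyhypusine synthase, rose by 0.38 (SE 0.07, limma adjusted p = 0.00606) and in all 3 of its probe sets. EIF5A fell by 0.84 (SE 0.21, limma adjusted p = 0.0239), from 13.57, 13.44 and 13.47 to 12.11, 12.90 and 12.96, and its other probe sets had smaller differences of -0.37 and -0.34, of which the first passed. The arrays numbered 1 gave -1.46 and arrays 2 and 3 gave -0.53, and EIF5A did not pass without siEGFP array 1, 2 or 3 (adjusted p = 0.0784, 0.0687 and 0.0715). With the replicate block 4 of the 4 genes passed, as did 34.6% of all genes.

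Of 7 transporters, SLC18B1, a vesicular polyamine transporter, fell and 6 did not pass (median -0.01). It went from 10.53, 10.20 and 10.20 in siEGFP to 8.74, 8.92 and 8.92 in siPCARNEQ, a fall by 1.45 (SE 0.11, limma adjusted p = 0.000183). Among 3 further relatives of the 10 genes, OAZ3, an antizyme known from testis, rose by 0.73 (SE 0.18, limma adjusted p = 0.0210) in its brighter probe set and had 0.17 in the other. OAZ3 did not pass without siPCARNEQ array 2 or 3 (adjusted p = 0.0641 and 0.0669). PAOX, the oxidase of acetylated polyamines, named after its value was seen, had a difference of -0.27 (limma adjusted p = 0.0559) and did not pass, but it passed with the replicate block (adjusted p = 0.0276) and without siPCARNEQ array 3 (adjusted p = 0.0401). The 4 probe sets of PAOX lay on both sides of 0, from -0.35 to 0.39, and none passed over probe sets (adjusted p = 0.0550 to 0.111). With the replicate block, and also without siPCARNEQ array 1, 2 of the 7 transporters and 2 of these 3 relatives passed, where 34.6% and 31.9% of all genes did.

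Oxidation of polyamines yields hydrogen peroxide and aldehydes. Of 9 genes that dispose of them, 2 rose, 0 fell and 7 did not pass (median 0.06), and 0 fell at an unadjusted limma p below 0.05. CAT, catalase, rose by 0.97 (SE 0.07, limma adjusted p = 0.000171) and by 0.94 in its second probe set, while a further, dim one (215573_at, mean level 5.56) had 0.34 and did not pass (adjusted p = 0.245 over probe sets). ALDH2, a mitochondrial aldehyde dehydrogenase, rose by 0.87 (SE 0.26, limma adjusted p = 0.0471 over genes and 0.0688 over probe sets), and leaving out any array other than siEGFP array 1 raised its adjusted p to between 0.0506 and 0.150.

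**Figure D4:**
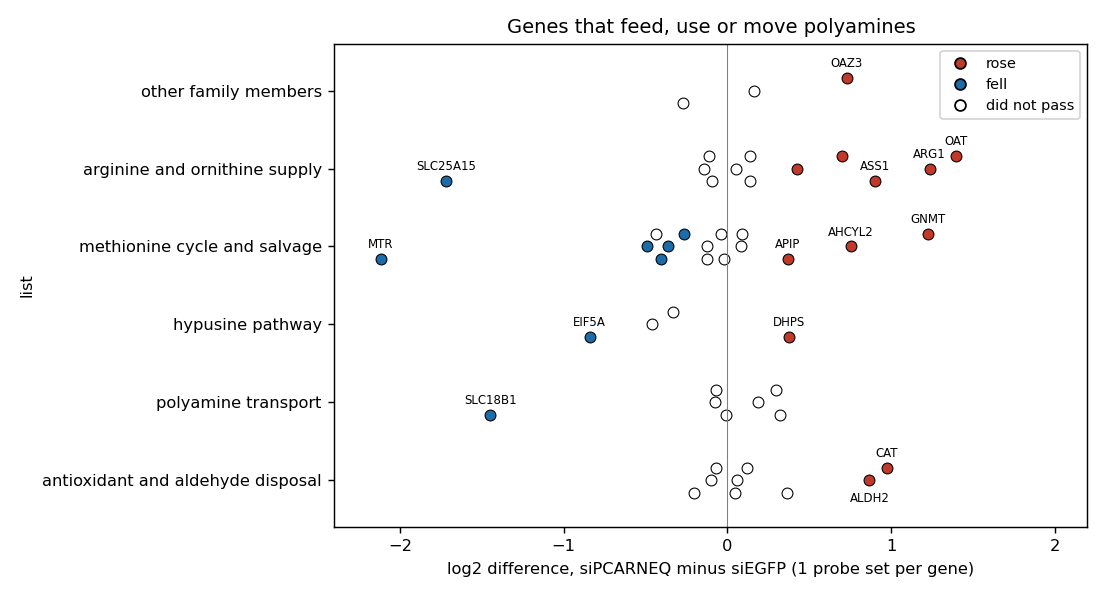
Log2 difference (siPCARNEQ minus siEGFP, 1 probe set per gene) of the 50 genes in 6 lists around the pathway. Red points rose, blue points fell and open points did not pass limma at an adjusted p of 0.05. Labels mark the genes named by rule, so ARG2 and PAOX, though named in the text, carry none. MTR, SLC25A15 and SLC18B1 lie furthest to the left and OAT furthest to the right.

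Every array had a median intensity of 130.8 (log2 7.03), since the deposited values share 1 distribution, and precision was limited by having 3 arrays per group. No probe set was annotated to PCARNEQ, so the targeted RNA was not analysed here. All 9 measured luminal prostate markers lay above the array median, and 6 of them rose, where 15.2% of all genes rose. Their summed intensity was 68761 to 75816 in siPCARNEQ and 46898 to 47755 in siEGFP. Fibroblast and smooth muscle markers (5 of 8 above the median) summed to 2576 to 3055 against 1823 to 1854, basal markers (2 of 4) to 662 to 690 against 538 to 686, neuroendocrine markers (3 of 5) to 879 to 1228 against 690 to 802, and immune and endothelial markers (2 of 7) to 755 to 794 against 747 to 846. Of the 8 fibroblast and smooth muscle markers, 2 rose (COL1A1 and LUM, by 1.11 and 1.39), ACTA2 fell by 0.46 and the median difference was -0.00, and of the 5 neuroendocrine markers ENO2 alone rose, by 0.72, with a median of -0.01. The part of these markers in the changes of the polyamine genes was not tested.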

How the data were processed

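Biotin-labelled cRNA from total RNA was hybridised to Affymetrix arrays, 3 per group, per the labels. The authors deposited linear intensity per probe set, made with RMA according to the submitters' processing notes. RMA corrects background, equalises array distributions and summarises probes. Ranked log2 values differed between arrays by no more than 0.00494, so differences in total RNA are out of reach. The genome build of the array design is not given in the sources used here.

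Log2 was taken of the deposited intensity without a pseudocount, since all values were above 0, and 62 control probe sets were left out. Of 54613 probe sets tested, 41091 were paired with 1 gene, 1801 with several and 11721 with none in the platform annotation, and 0 symbols changed through RefSeq gene identifiers, with 54 unmatched. A gene was represented by its single-gene probe set of highest mean over all arrays, without a filter on dim probe sets. The comparison used limma 3.58.1 (lmFit, eBayes; R 4.3.3), 2-sided, without covariates, over all probe sets or all genes, and the fit was tested on simulated data. Ratios of gene pairs were compared by exact permutation over arrays. Figures were drawn with matplotlib 3.10.9.

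Deviations from the group means correlated at 0.471, 0.3 and 0.339 between same-numbered arrays. Differently numbered arrays were not compared, so these values cannot show that the numbers pair the arrays, and no shared batch is stated. The main limma fit and the permutation test left the arrays unpaired, and the replicate block served as an alternative only. The SD of the log2 difference was 0.136 and 0.129 between arrays 2 and 3 of a group and 0.232 to 0.373 against array 1. All 10 genes were named by rule, as were up to 4 genes with the smallest p from each pathway list, and the 3 nearest profiles for 1 gene of each role. The 10 genes, the lists and the tests were chosen with earlier results of these data known. Alternatives were a replicate block, leaving out dim or suffixed probe sets, an intensity trend, a further quantile normalization, leaving out each array, averaging or using only arrays 2 and 3, and averaging the probe sets of a gene.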

Additional observations from a re-analysis of the deposited data

How the results depend on the processing

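SAT1 and SAT2 passed under every alternative that gave a value, with log2 differences of 1.31 to 1.48 and 0.54 to 0.60. SAT1, SMS and OAZ1 have suffixed probe sets only, so leaving those out gave no value for them. Of the 10 genes, 4 passed, where 27.5% of all genes did. When 1 array was left out 3 to 5 passed, beside 18.7% to 31.9% of all genes. With arrays 2 and 3 averaged 2 passed (11.3% of all genes), and with arrays 2 and 3 only 7 passed (41.6%). Without suffixed probe sets 2 of the genes that still had a value passed, beside 25.6% of all genes. Without 1 array, log2 differences ranged from -0.37 to -0.28 for ODC1, from 0.15 to 0.21 for AMD1, from -0.55 to -0.30 for SRM, from 0.50 to 0.60 for SMS, from -0.010 to 0.028 for OAZ1, from -0.26 to 0.044 for OAZ2 and from 0.20 to 0.36 for SMOX. ODC1 (-0.36, adjusted p = 0.114) and SMS (0.53, adjusted p = 0.0531) did not pass with arrays 2 and 3 averaged. With arrays 2 and 3 only, SRM (-0.51), AZIN1 (0.16) and SMOX (0.29) passed, and AMD1 (0.18) passed with an intensity trend. The replicate block let SRM (-0.39) and SMOX (0.27) pass and changed no other call among the 10 genes; counts of pathway lists that it moved stand beside them.
Signs turned for OAZ1 at -0.0044 and -0.010 without siPCARNEQ array 2 or 3, -0.0063 without siEGFP array 1 and -0.0017 with averaging. They turned for OAZ2 at 0.044 without siPCARNEQ array 1, 0.048 with arrays 2 and 3 only, 0.072 as the mean of its probe sets and 0.29 without suffixed ones, for AZIN1 at -0.10 as a mean and for SMOX at -0.052 without suffixed ones. None of these passed. The OAZ1 and OAZ2 pair (0.15) lay between -0.015 and 0.25 without 1 array, and turned to -0.015 without siPCARNEQ array 1, -0.030 with arrays 2 and 3 only and -0.052 as means. Over all probe sets 10122 passed, against 5829 to 13232 without 1 array (5829 without siEGFP array 2 and 5870 without siEGFP array 3), 2264 with averaging and 17104 with arrays 2 and 3 only, and over genes 5445, 3701 to 6303, 2236 and 8229. The replicate block gave 12500 probe sets and 6834 genes. Of the 50 pathway genes 20 passed, against 14 to 23 without 1 array, 26 with the replicate block, 9 with averaging and 30 with arrays 2 and 3 only. In the same order, 27.5%, 18.7% to 31.9%, 34.6%, 11.3% and 41.6% of all genes passed. Why averaging and arrays 2 and 3 alone moved these counts was not tested, beyond their having fewer arrays.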
